A study of Mus musculus with 48 samples.

Results

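The response of mouse monocyte-derived dendritic cells (moDC) to CpG B was followed in 5 libraries: 1 of untreated cells and 1 each after 1, 2, 4 and 6 h of the oligonucleotide at 5 uM. They were taken by their column labels from the 32 libraries of a stimulation experiment, in a series of 48 samples. All came from C57BL/6 bone marrow of female mice aged 6 to 10 weeks, cultured with GM-CSF, and the labels describe no genotype other than this strain. The labels do not say how many mice or cultures stand behind a library. Polyadenylated RNA was sequenced from transcript 3′ ends. Other time courses of the same experiment serve as comparisons: CpG A, also at 5 uM, in moDC at 1, 4 and 6 h, and CpG B at 5 uM in cells grown with Flt3L, which the labels call pDC (plasmacytoid dendritic cells), at 1, 2, 4 and 6 h. Lipopolysaccharide and PAM3CSK, each at 100 ng/ml in moDC at 1, 2, 4 and 6 h, are also compared. The fit of late against early hours uses all 32 libraries, which also hold untreated pDC and pDC given CpG A, lipopolysaccharide or PAM3CSK.

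CpG B is a DNA oligonucleotide with unmethylated CG dinucleotides that is recognised in endosomes by Toll-like receptor 9 (TLR9). TLR9 signals through the adaptor Myd88 and the Irak kinases to NF-kB and mitogen-activated kinases, which induce cytokine genes, and through interferon regulatory factors (IRFs) to interferon genes. Secreted type I interferon then acts on its receptor, and transcription factors that include Stat2 and Irf9 turn on interferon-stimulated genes through a DNA element called the ISRE.

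The 5 libraries held 308754 to 401755 counts, so 1 count was worth 2.46 CPM (counts scaled to a common library size) in the untreated library and 4.00 CPM at 6 h. Where no count was seen, counting error alone leaves room for 3 counts, which is 7.38 CPM in the untreated library and 12.0 CPM at 6 h. Myeloid genes marked all 5 libraries. Itgax, which encodes the DC integrin CD11c, lay at 721 to 1237 CPM, and the MHC class II chain gene Cd74 at 12750 to 15470 CPM. Siglech, a defining pDC gene, lay between 0 and 4.00 CPM. Of the lists of other cells, 19 neutrophil genes summed to 12070 to 16070 CPM and 21 basophil, mast cell and eosinophil genes to 2190 to 3346 CPM in every library, treated or not. B cell, T cell and NK cell genes summed to at most 16.6, 70.4 and 7.99 CPM. The part of these other cells in the results was not tested. Gapdh and Ppia, which every cell uses, are listed at 0 to 4.00 CPM, so a listed 0 need not mean that a gene was silent.

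Promoters of 4 genes with different time courses show the sequence elements that the NF-kB and interferon steps are known to use. Capitals mark matches on either strand to GGGNNNNNCC (an NF-kB-type letter pattern, kB) or GAAANNGAAA (an ISRE-type pattern), and overlapping matches run together. Each sequence is RefSeq's, build GRCm38.p6, minus strand, from 250 bases before to 50 bases after the gene start. Nfkbia (chr12:55492598-55492897) was highest at 1 h and has 2 kB matches. Cxcl10 (chr5:92348840-92349139) was above untreated at 1 h and far more so at 4 h, and has 3 kB matches and 1 ISRE match. Rsad2 (chr12:26456403-26456702) has 1 of each, and Isg15 (chr4:156200769-156201068) has 3 overlapping ISRE matches and no kB match, and both were far higher at 4 and 6 h than before.
Nfkbia: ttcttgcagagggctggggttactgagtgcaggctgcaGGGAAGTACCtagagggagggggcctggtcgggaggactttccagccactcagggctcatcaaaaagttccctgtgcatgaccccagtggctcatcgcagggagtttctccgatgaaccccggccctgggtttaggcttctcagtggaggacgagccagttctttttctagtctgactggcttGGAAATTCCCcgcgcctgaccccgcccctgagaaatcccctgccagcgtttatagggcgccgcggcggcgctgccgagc
Cxcl10: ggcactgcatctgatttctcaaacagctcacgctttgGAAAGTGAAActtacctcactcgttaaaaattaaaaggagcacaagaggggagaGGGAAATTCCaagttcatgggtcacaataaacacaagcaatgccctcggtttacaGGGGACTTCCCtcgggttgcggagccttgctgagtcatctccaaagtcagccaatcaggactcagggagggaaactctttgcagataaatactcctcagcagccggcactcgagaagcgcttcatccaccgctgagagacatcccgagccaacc
Rsad2: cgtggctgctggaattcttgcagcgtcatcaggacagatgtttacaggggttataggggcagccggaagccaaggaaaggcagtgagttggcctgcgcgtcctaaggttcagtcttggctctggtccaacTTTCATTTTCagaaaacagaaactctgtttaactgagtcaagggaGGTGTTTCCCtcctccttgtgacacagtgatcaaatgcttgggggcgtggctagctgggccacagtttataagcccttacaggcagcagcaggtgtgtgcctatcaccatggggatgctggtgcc
Isg15: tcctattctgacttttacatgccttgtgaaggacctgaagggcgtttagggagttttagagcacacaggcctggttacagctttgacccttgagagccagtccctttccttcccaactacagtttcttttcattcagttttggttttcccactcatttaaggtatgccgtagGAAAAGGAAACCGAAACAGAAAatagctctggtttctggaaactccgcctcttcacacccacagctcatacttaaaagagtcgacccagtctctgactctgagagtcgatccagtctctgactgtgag
The ISRE pattern was in a promoter of 17 of the 29 interferon-stimulated genes that have an entry (58.6%), against 260 of 6488 tested genes with one (4.01%) and 3.44% of all 32851 promoters. Entries were found for 72.5% of the interferon-stimulated list and 67.5% of the cytokine and chemokine lists, below the 80% needed for a comparison of sets, so these shares describe only the genes matched. The kB pattern was common in every set: 72.6% of tested genes, 50.8% of all promoters, 81.8% of NF-kB inhibitor genes and 63.0% of cytokine and chemokine genes held it. A match is a description of letters and not a binding site, and Il12b, the gene with the largest ratio at 6 h, held neither pattern in this window. The 4 printed promoters were picked from a longer set. In that set Ifit2, also an interferon-stimulated gene, had no ISRE match in either of its 2 promoters.

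More genes differed from the untreated library at each later hour. In bulk libraries, fewer cells of a type and less RNA per cell cannot be told apart. Levels are CPM on the scale of edgeR's trimmed mean of M values (TMM), and a gene was counted as changed at an hour when (CPM + 10) differed at least 2-fold from the untreated library. Of 8056 genes with enough counts, 375 (4.65%) were higher and 267 (3.31%) lower at 1 h. At 2 h 568 (7.05%) were higher and 388 (4.82%) lower. The counts were 907 (11.3%) and 592 (7.35%) at 4 h, and 964 (12.0%) and 733 (9.1%) at 6 h. These ratios compare single libraries, carry no test, and all 4 use the same untreated library. A stricter 4-fold limit left 56 higher and 3 lower at 1 h, 82 and 10 at 2 h, 240 and 30 at 4 h, and 244 and 42 at 6 h. Most genes past this limit were thus increases. With 10 CPM added, a gene low in the untreated library cannot be 4-fold lower but can be 4-fold higher, so the limit favours increases. Between treated libraries the step with most increases was from 2 to 4 h, with 548 genes (6.8%) at least 2-fold higher and 349 (4.33%) lower. From 1 to 2 h the counts were 254 (3.15%) and 245 (3.04%), and from 4 to 6 h 340 (4.22%) and 360 (4.47%). Many of these differences were within counting error. The counting interval of the ratio excluded 1 for 426 of the increases and 183 of the decreases from 2 to 4 h. It did so for 179 and 145 from 1 to 2 h, and for only 150 and 148 from 4 to 6 h. At the 4-fold limit the step from 2 to 4 h held 97 increases and 4 decreases, and the other 2 steps at most 4 in either direction.

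Among the 1495 genes that were higher at any hour, 175 had their highest treated level at 1 h, 237 at 2 h, 487 at 4 h and 596 at 6 h. Of the 1362 genes lower at any hour, the lowest level was at 1 h for 154, at 2 h for 224, at 4 h for 415 and at 6 h for 569. The split between increases and decreases depends on the scaling. With column totals in place of TMM the median gene shifted to -0.24 at 4 h and -0.25 at 6 h on the log2 scale. The counts became 638 higher and 1176 lower at 6 h, and 1030 genes were lower at 4 h.

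**Figure D1:**
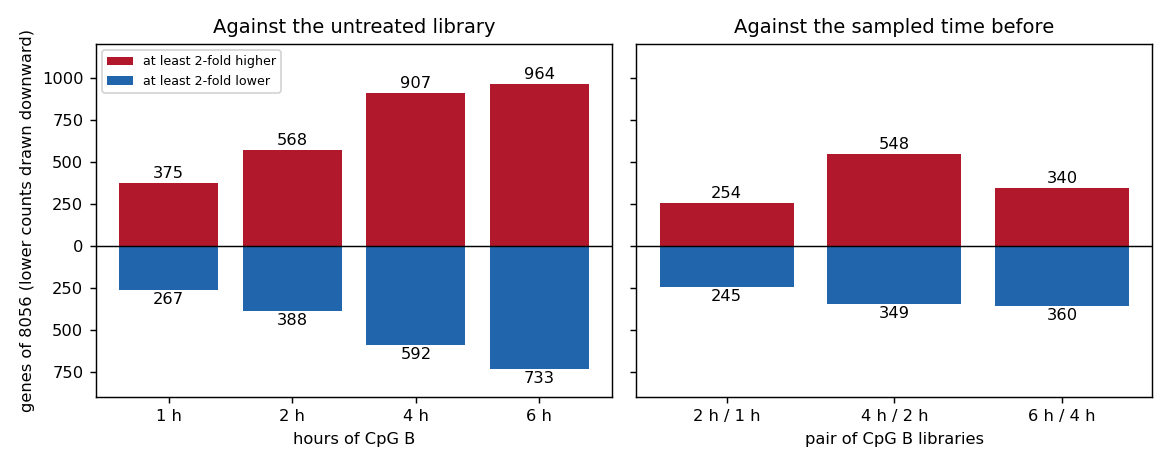
Number of genes, of 8056, whose (CPM + 10) was at least 2-fold higher (upward bars) or lower (downward bars). The left panel sets each hour of CpG B against the untreated library and the right panel sets each sampled time against the one before, with 1 library per condition. The most increases on the right are at 4 h against 2 h, with 548 higher and 349 lower. The bars include genes within counting error: at 6 h against 4 h the counting interval excluded 1 for 150 of 340 increases and 148 of 360 decreases.

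The 5 highest ratios at 1 h among genes reaching 100 CPM were those of Il12b, Tnf, Cxcl1, Cxcl2 and Tnfaip3. Tnf, which encodes tumour necrosis factor, lay at 229 CPM untreated and at 11000, 5693, 7276 and 4120 CPM at 1, 2, 4 and 6 h. It was thus highest at 1 h, 48.1-fold above untreated (95% exact counting interval 39.1 to 59.7), and stayed above the untreated level in all 4 treated libraries. Cxcl1, a neutrophil-attracting chemokine, went from 19.7 CPM untreated to 860 at 1 h and then to 462, 144 and 104 CPM. Cxcl2, a chemokine of the same kind, had 349 CPM untreated, 9723 at 1 h, and 5218, 3697 and 2777 CPM afterwards. Both declined from their 1 h level without reaching the untreated one by 6 h. Tnfsf9, the ligand of the costimulatory receptor 4-1BB, gave 12.3 CPM untreated, 444 at 1 h, and 200, 88.9 and 28.0 CPM at 2, 4 and 6 h, a return almost to its start.

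Immediate early genes, transcription factors and regulators induced without new protein synthesis, were high at 1 h and mostly back by 2 h. Of 25 listed genes 22 were tested, and 13 were at least 2-fold higher at 1 h, against 6, 5 and 6 at 2, 4 and 6 h, with 4.65%, 7.05%, 11.3% and 12.0% of all tested genes as background. Their median log2 ratio was 1.54 at 1 h and 0.31, 0.28 and 0.35 later, against -0.01 to 0 for all tested genes. Egr1, a zinc finger factor, had 44.3 CPM untreated, 330 at 1 h, and 28.1, 14.8 and 4.00 CPM afterwards, so it lay below its start at the last hours. Zfp36, whose protein destabilises cytokine mRNAs, followed with 41.8 CPM untreated, 341 at 1 h and 46.9 at 2 h, but lay at 63.0 and 116 CPM at 4 and 6 h. Dusp1, a phosphatase that switches off mitogen-activated kinases, had 14.8 CPM untreated and 91.5 at 1 h, and 21.9 to 29.6 CPM later. Other members did not follow the list. Gadd45b, a stress and NF-kB target, had a higher level at each hour, from 111 CPM untreated through 469, 681 and 900 to 1019 CPM. Klf4, a myeloid zinc finger factor, had 108 CPM untreated, then 33.3, 6.25, 7.41 and 0 CPM. Klf4 was among the 5 lowest ratios at 2, 4 and 6 h.

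Inhibitors and negative regulators of NF-kB were mostly above untreated from 2 h on. Of 12 tested members of 14, 6 were at least 2-fold higher at 1 h, 11 at 2 h, 8 at 4 h and 9 at 6 h, and none was 2-fold lower at any of these hours. Among all tested genes 4.65%, 7.05%, 11.3% and 12.0% were higher. Nfkbia, which encodes the inhibitor IkBalpha, lay at 642 CPM untreated and at 2825, 2112, 1871 and 1782 CPM from 1 to 6 h. Tnfaip3, the ubiquitin-editing enzyme A20, lay at 14.8 CPM untreated and at 535, 231, 152 and 136 CPM. Both were highest at 1 h and declined to a plateau above untreated. Nfkbiz, a nuclear IkB protein needed for Il6 and Il12b induction, went from 2 counts (4.92 CPM) untreated to 238 CPM at 1 h and still had 99.9 CPM at 6 h. Bcl3, another nuclear IkB protein, was highest at the end, going from 61.5 CPM untreated through 108, 188 and 211 to 452 CPM. Of 5 NF-kB subunit genes none was 2-fold higher at 1 h and 4 were at 6 h, against 4.65% and 12.0% of all tested genes, but 1 with column totals and 3 with DESeq2 size factors at 6 h, and none was called late against untreated. Nfkb1 (p105 and p50) went from 36.9 CPM untreated to 141 CPM at 4 h, and Relb from 280 to 567 CPM at 6 h.

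**Figure D2:**
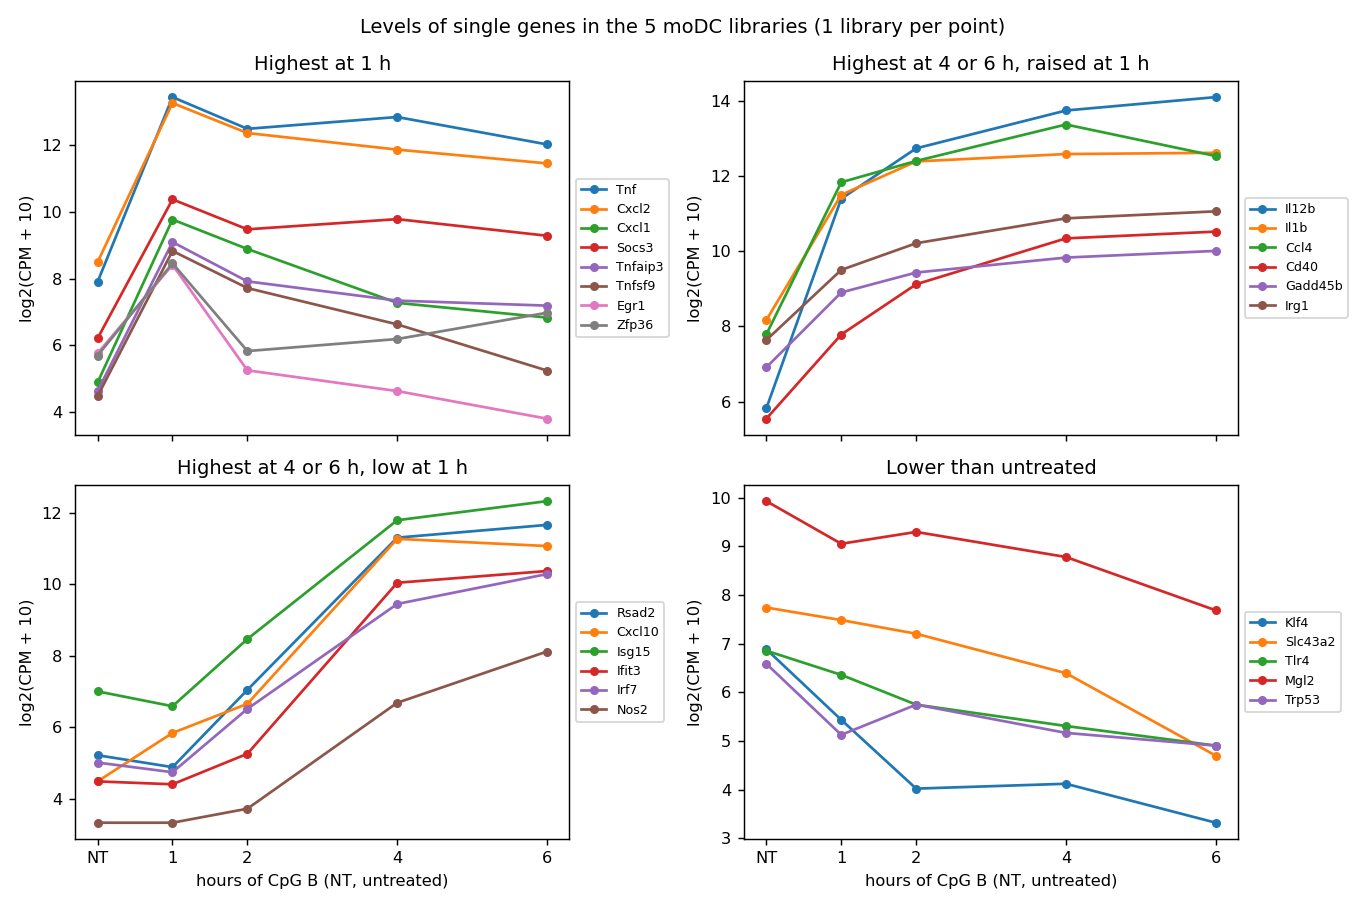
Level of single genes as log2(CPM + 10) in the untreated library (NT) and at 1, 2, 4 and 6 h of CpG B, with 1 library per point and no error bar because no condition is replicated. The panels group genes by when they are highest: Tnf and Cxcl1 peak at 1 h, Il12b is above untreated at 1 h and reaches 17440 CPM at 6 h, Rsad2 and Isg15 are high at 4 and 6 h, and Klf4 reaches 0 at 6 h.

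Cytokine genes spread over the whole course. Of 22 tested inflammatory cytokine genes, out of 26, 12 were at least 2-fold higher at 1 h, 17 at 2 h, 19 at 4 h and 17 at 6 h, and none was 2-fold lower. The shares of all tested genes that were higher were 4.65%, 7.05%, 11.3% and 12.0%. Il12b, the p40 chain shared by interleukins 12 and 23, had 46.8 CPM untreated and 2678, 6786, 13630 and 17440 CPM at 1, 2, 4 and 6 h. Its ratio grew from 57.3 (36.5 to 95.6) at 1 h to 373 (239 to 620) at 6 h. The partner chains stayed low. Il23a (p19) was highest at 2 h, at 106 CPM, and lay at 40.0 CPM at 6 h, while Il12a (p35) had 18.5 to 28.0 CPM from 2 h on. Il1b, interleukin 1 beta, went from 278 CPM untreated to 2881 at 1 h and 5330, 6109 and 6249 CPM, so its level at 2 h was already near that at 6 h. Il6 was highest at 4 h, with 2.46 CPM untreated and 97.0, 112, 434 and 256 CPM. Il27, the p28 chain of interleukin 27, had no counts untreated and 178 CPM at 4 h, at least 24.1-fold higher than a floor of 3 counts. Il10, which encodes an anti-inflammatory cytokine, had at most 3.12 CPM.

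Of 18 tested chemokine genes, out of 20, 10 were at least 2-fold higher at 1 h, 12 at 2 h, 16 at 4 h and 15 at 6 h, against 4.65%, 7.05%, 11.3% and 12.0% of all tested genes. In the edgeR test of 4 and 6 h against 1 and 2 h, 3 were called higher (Cxcl10, Ccl7 and Ccl12) and 1 lower (Cxcl1). Of all tested genes 2.99% were called higher and 0.708% lower in that test. The chemokine calls were lost without the 1 h library. Ccl22, which attracts T cells through Ccr4, went from 5576 CPM untreated to 7123, 13490, 26360 and 41180 CPM. Ccl5, which attracts T cells and monocytes, went from 2151 to 15760 CPM over the same hours. Ccl4, an inflammatory chemokine, was highest earlier, with 212 CPM untreated, 10530 at 4 h and 5890 at 6 h. Among the receptors Ccrl2, a receptor that binds chemerin, was highest at 1 h, at 200 CPM against 4.92 CPM untreated.

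Interferon-stimulated genes were near the untreated level at 1 h and far above it at 4 h. All 40 listed genes were tested. At 1 h none was at least 2-fold higher and 2 were lower. At 2 h 18 were higher, and at 4 h and 6 h 38 were, with median log2 ratios of 0.01, 0.79, 3.11 and 3.33 from 1 to 6 h. The background of all tested genes was 4.65%, 7.05%, 11.3% and 12.0% higher at these hours, and 3.31% lower at 1 h. Rsad2, the antiviral enzyme viperin, lay at 27.1 CPM untreated, 19.4 at 1 h, 122 at 2 h, 2523 at 4 h and 3233 CPM at 6 h. Isg15, a ubiquitin-like modifier, lay at 118, 85.9, 344, 3542 and 5135 CPM in the same libraries. Ifit3, which binds viral RNA together with Ifit1 and has a near-identical copy that could share its reads, lay at 12.3, 11.1, 28.1, 1045 and 1315 CPM. In all 3 the untreated and 1 h libraries were within counting error of each other, with ratios whose intervals include 1. Ly6e, a membrane protein gene often counted with this group, did not follow: it lay between 1325 and 1858 CPM in all 5 libraries. Type I interferon transcripts themselves were scarce. Ifnb1 had no count untreated, 8.32 CPM at 1 h, 34.4 at 2 h and 51.9 and 52.0 CPM at 4 and 6 h, and each of the other 15 listed interferon genes had at most 4.92 CPM in any of the 5 libraries.

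**Figure D3:**
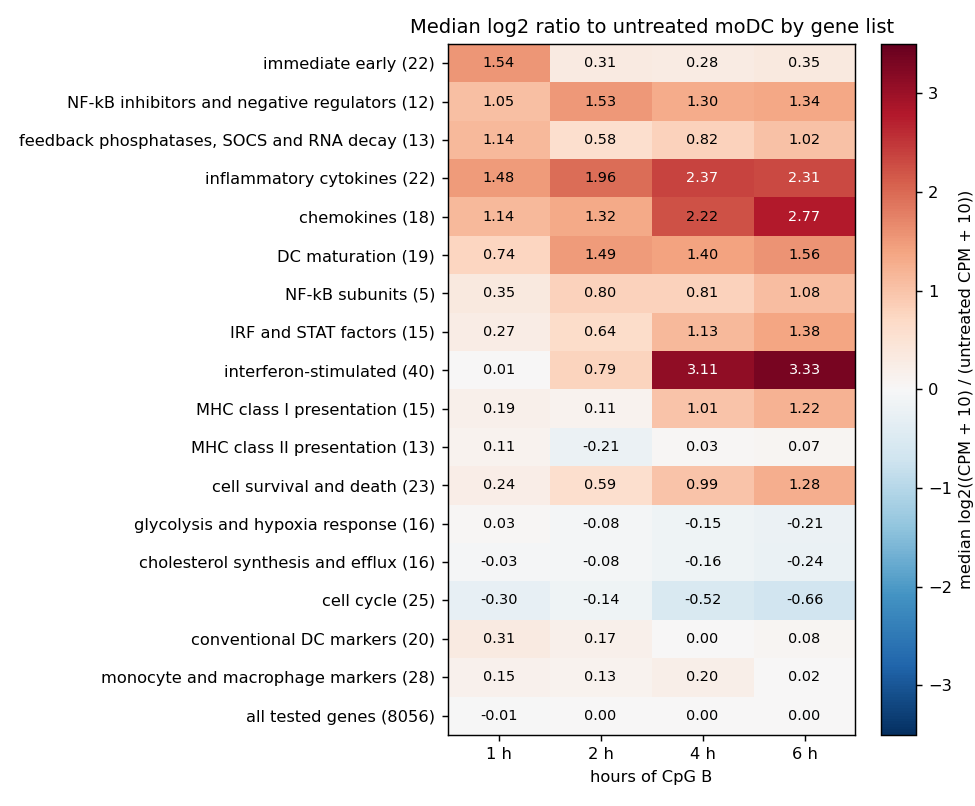
Heat map of the median log2((CPM + 10) / (untreated CPM + 10)) of each gene list (rows) at 1, 2, 4 and 6 h of CpG B (columns), with the number of tested members in brackets and all tested genes in the last row. Immediate early genes are highest at 1 h (1.54), interferon-stimulated genes go from 0.01 at 1 h to 3.33 at 6 h, and MHC class II genes stay between -0.21 and 0.11.

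The late change was then tested without the untreated library. The 4 and 6 h libraries were set against the 1 and 2 h libraries with edgeR's quasi-likelihood test in a fit of all 32 libraries, so that differences between hours inside a pair count as spread. A call needs a Benjamini-Hochberg adjusted p below 0.05 over all tested genes and a fold of at least 2. Of 8056 genes 241 (2.99%) were higher late and 57 (0.708%) lower, 3.7% in either direction. Of the 40 interferon-stimulated genes 34 rose (median log2 change 3.03, against 0 for all tested genes) and none fell; Mx1, Mx2, Oas1a, Trim25, Igtp and Ly6e were not called. Ifit3 rose by 5.92 ± 1.17 (SE, log2, adjusted p = 0.00353), Rsad2 by 5.37 ± 1.09 (adjusted p = 0.00417) and Isg15 by 4.35 ± 0.93 (adjusted p = 0.00614). Iigp1, an interferon-induced GTPase gene, had no count at 1 and 2 h and 59.3 and 128 CPM at 4 and 6 h. The calls need all 4 libraries. Without the 1 h library 9 genes were higher and none lower, without 2 h 142 and 39, without 4 h 179 and 38, and without 6 h 75 and 1, with the lone library assumed to vary like the other groups. The interferon-stimulated calls numbered 1, 25, 28 and 15 in these fits, while the list's median change stayed between 2.78 and 3.87.

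Transcription factors and antigen presentation genes were among the late calls. Of 15 IRF and STAT genes 4 rose late, against 2.99% of all tested genes. Among the 4 were Irf7 (4.32 ± 0.75, log2, SE, adjusted p = 0.00146), which drives interferon genes, Stat2 (3.01) and Irf8 (1.16). Irf7 lay at 22.1 CPM untreated and at 16.6, 81.2, 689 and 1239 CPM from 1 to 6 h. Irf8, a factor that shapes DC identity, was higher at each hour than at the one before, from 160 CPM untreated through 211, 359 and 552 to 719 CPM (1.16 ± 0.27, adjusted p = 0.0135). Cebpb, a C/EBP factor of myeloid cells, had 317 CPM untreated and already 654 CPM at 1 h, then 706, 715 and 639 CPM. Its late against early change was -0.01 ± 0.28 (adjusted p = 0.997, 95% interval -0.59 to 0.58). The Irf8 level thus differed between late and early hours and the Cebpb level did not detectably. The calls of Irf7, Stat2 and Irf8 were lost without the 1 h library, and that of Irf8 also without the 6 h library; with column totals the Irf8 change was 0.98, under the 2-fold limit.

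Against 2.99% and 0.708% of all tested genes, 8 of 15 MHC class I genes rose late and none fell. They were the peptide transporter genes Tap1 (2.39 ± 0.39, adjusted p = 0.00102) and Tap2 (1.48), the loading factor Tapbp (1.53), the immunoproteasome subunits Psmb8 (1.19), Psmb9 (1.64) and Psmb10 (1.51), the proteasome activator Psme1 (1.06) and Nlrc5 (2.16), the factor that drives class I genes. Tap1 lay at 148 CPM untreated, at 139 and 191 CPM at 1 and 2 h, and at 837 and 883 CPM at 4 and 6 h. No call was made in either direction among 13 MHC class II genes (median 0.00), against 3.7% of all tested genes called. H2-Ab1, a class II chain, lay at 1026 CPM untreated and at 1371 to 1764 CPM with CpG B, and its late against early change was 0.03 ± 0.29 (95% interval -0.57 to 0.63). Ciita, the factor that drives class II genes, lay at 113 CPM untreated, 48.2 to 55.5 CPM from 1 to 4 h and 144 CPM at 6 h. Without the 1 h library none of the class I calls was made and without 6 h 1 was.

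Nos2, the inducible nitric oxide synthase, had no count untreated or at 1 h, 1 count at 2 h, and 92.6 and 268 CPM at 4 and 6 h, at least 36.3-fold above the untreated floor of 3 counts at 6 h. Its late against early rise was called (adjusted p = 8.87e-05). Irg1, whose enzyme makes itaconate, was above untreated from 1 h on, going from 190 CPM untreated through 715 and 1175 to 1864 and 2122 CPM. Ptgs2 (cyclooxygenase 2) had no count untreated and 94.3 CPM at 1 h, with 56.2 to 120 CPM later. Maf, a myeloid transcription factor, dipped to 3.12 CPM at 2 h from 24.6 CPM untreated and then lay at 141 and 132 CPM (3.70 ± 0.49, adjusted p = 0.000104). Nos2, Maf and Bst2 (2.39 ± 0.33, adjusted p = 0.000155), an interferon-induced membrane protein, kept their call without any 1 of the 4 libraries; they were the 3 of 48 called genes on the rule's list that did.

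Among the 57 genes that fell late, Gadd45a, a stress-response gene, fell by 3.09 on the log2 scale (SE 0.60, adjusted p = 0.00292), with 46.8 CPM untreated, 319 and 109 CPM at 1 and 2 h and 22.2 and 28.0 CPM at 4 and 6 h. Cxcl1 fell by 2.41 (SE 0.57, adjusted p = 0.0134). Ceacam15 and Il1rl2, a receptor chain of the interleukin 36 family, had 22.2 to 41.6 CPM up to 2 h and no count at 4 or 6 h. Slc43a2, an amino acid transporter gene, also fell late (by 1.74, SE 0.47, adjusted p = 0.0368) and was lower at each hour than at the one before, from 204 CPM untreated to 169, 138, 74.1 and 16.0 CPM. Each of these 5 calls was lost without the 1 h library.

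**Figure D4:**
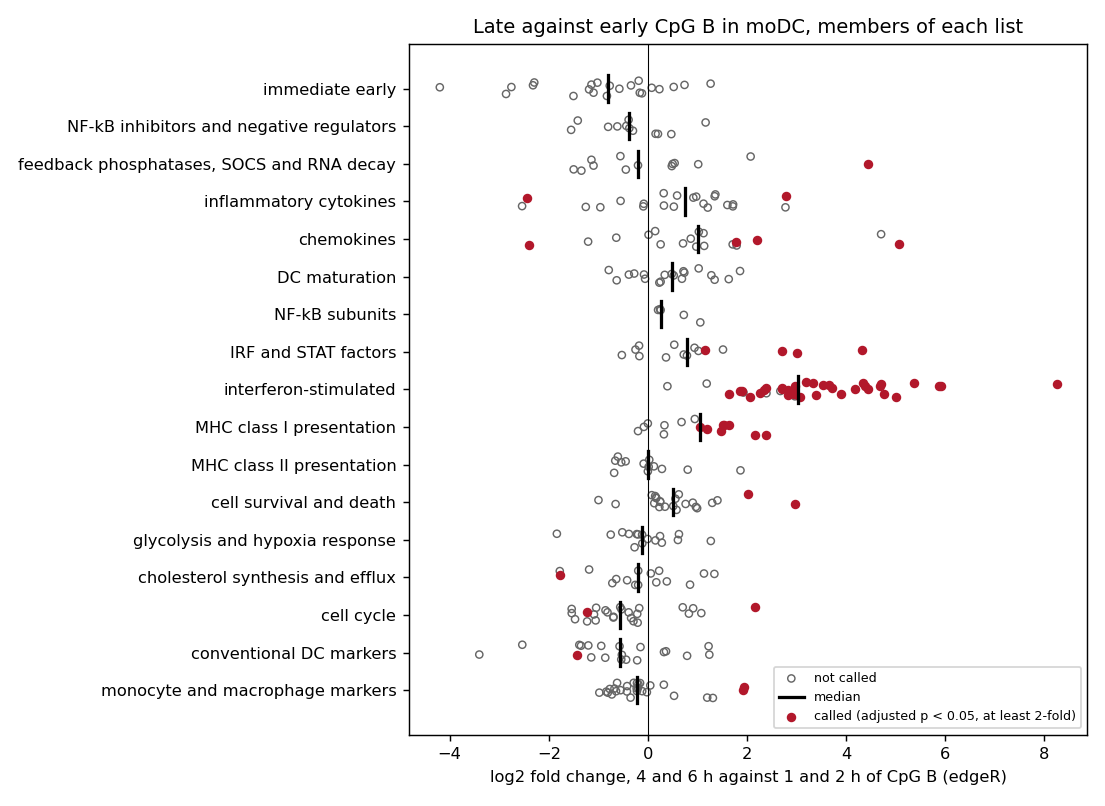
Log2 fold change of 4 and 6 h against 1 and 2 h of CpG B for each tested member of a list (points, edgeR) and the median of the list (vertical black lines). Filled points passed an adjusted p of 0.05 and a 2-fold change; 34 of 40 interferon-stimulated and 8 of 15 MHC class I genes did.

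Against the untreated library, 4 and 6 h together gave 370 genes higher (4.59%) and 144 lower (1.79%) in the same fit, 6.38% of tested genes in all. The lone untreated library is assumed there to vary like the other groups. Among the calls were 12 of 22 inflammatory cytokine genes, 11 of 18 chemokine genes, 34 of 40 interferon-stimulated genes, 6 of 19 DC maturation genes and 5 of 12 NF-kB inhibitors, all higher. Without 4 h these counts were 7, 8, 22, 3 and 1, and without 6 h 6, 6, 14, 4 and 1. Cd40, the receptor through which T cells license DC, rose by 5.20 ± 1.25 (log2, SE, adjusted p = 0.0162), with 36.9 CPM untreated and 211, 547, 1286 and 1458 CPM from 1 to 6 h. Fscn1, an actin-bundling protein of mature DC, rose by 2.67 ± 0.59 (adjusted p = 0.0111), from 947 CPM untreated to 6921 CPM at 6 h. Socs3, a brake on cytokine receptors, rose by 3.52 ± 0.52 (adjusted p = 0.00224) and was highest at 1 h, at 1311 CPM against 64.0 CPM untreated. With column totals 275 genes were higher and 343 lower. Without 4 h the counts were 176 and 43, and without 6 h 149 and 21.

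Of 20 genes of the TLR9 pathway 3 were at least 2-fold higher at 1 h, 4 at 2 h, 5 at 4 h and 3 at 6 h. Of all tested genes 4.65%, 7.05%, 11.3% and 12.0% were. In the pathway 1 gene was lower at 2 h and 1 at 6 h, against 4.82% and 9.1% of all tested genes. With column totals 2 were higher and 2 lower at 4 h. Late against untreated 2 were called higher and 1 lower, against 4.59% and 1.79% of all tested genes. Tlr9 itself gave 12.3, 16.6, 18.8, 29.6 and 28.0 CPM in the 5 libraries, 5 to 8 counts each, and its late change against untreated was 1.21 ± 0.87 (adjusted p = 0.462). Irak3, an inhibitory kinase homologue, rose late (2.65 ± 0.60, adjusted p = 0.0123), from 19.7 CPM untreated to 144 CPM at 6 h. Cnpy3, a chaperone for Toll-like receptors, fell by 1.23 (SE 0.32, adjusted p = 0.022), from 216 to 71.9 CPM. Tlr4, the lipopolysaccharide receptor, fell by 2.07 (SE 0.44, adjusted p = 0.00969), passing through 106, 72.1, 43.7, 29.6 and 19.98 CPM. Each of these 3 calls was lost without the 6 h library.

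Genes that were lower against untreated were spread over several lists. Of 25 tested cell cycle genes 5 were at least 2-fold lower at 6 h and 1 higher, against 9.1% and 12.0% of all tested genes. With column totals 12 were lower at 6 h. In the fit of late against untreated 2 were called lower, against 1.79% of all tested genes. The calls lower late against untreated were Mcm7 and Rrm2, in DNA replication and nucleotide supply, and both were lost without either the 4 or the 6 h library. Ccnd2, a G1 cyclin, rose late (2.15 ± 0.60 against early, adjusted p = 0.0399): 561 CPM untreated, 413 at 1 h, then 737, 1864 and 3257 CPM. Mgl2, a lectin of conventional DC, fell by 1.62 (SE 0.39, adjusted p = 0.0168), from 965 CPM untreated to 196 CPM at 6 h, a call lost without the 6 h library. Beside these decreases, the 30 monocyte and macrophage markers summed to 42350 CPM untreated and 47390, 45100, 36440 and 27640 CPM from 1 to 6 h. Of their 28 tested members 4 were at least 2-fold higher and 5 lower at 6 h, against 12.0% and 9.1% of all tested genes. The median log2 ratio of these members was 0.02, so the sum does not describe most of them. The part of these markers in the decreases was not tested. At 1 h the 5 lowest ratios were those of Upf3b, Sfrs18, Rbm25, Pabpn1 and Adra2a. The first 4 encode or are homologous to RNA-binding proteins of mRNA splicing, decay or polyadenylation. Rbm25 had 298 CPM untreated, 77.6 and 84.4 CPM at 1 and 2 h, and 119 and 164 CPM at 4 and 6 h. Pabpn1 had 349, 99.8, 144, 130 and 212 CPM. Both were lowest at 1 h and nearer to untreated at 6 h.

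CpG A gives a comparison with another TLR9 oligonucleotide. CpG A and CpG B are known to differ in backbone and in the palindromic, poly-G-tailed structure of CpG A. This 1 pair of compounds was compared at the same dose of 5 uM at 1, 4 and 6 h, with the time as a block in a fit of the 6 libraries. CpG B gave higher levels for 199 genes (2.47%) and lower levels for 15 (0.186%) of 8056, 2.66% in all. Of the lists, 15 of 22 cytokine genes, 12 of 18 chemokine genes and 16 of 40 interferon-stimulated genes were higher with CpG B and none of them lower, with list medians of 2.19, 1.65 and 1.46 on the log2 scale, against 0.00 for all tested genes. Il12b differed by 5.60 ± 0.39 (SE, adjusted p = 1.22e-05), with 18.4, 249 and 792 CPM at 1, 4 and 6 h of CpG A. Tnf, with 539, 1008 and 1436 CPM, differed by 2.90 ± 0.40 (adjusted p = 0.00208). At every shared hour both genes were higher with CpG B, and Tnf declined from 1 to 6 h with CpG B whereas its 6 h level was the highest with CpG A. Nos2 lay at 1.31, 7.65 and 1.63 CPM with CpG A, which is 4 counts at most. The interferon-stimulated count of 16 was 37 without either 1 h library, 2 or 3 without either 4 h library, and 7 without either 6 h library, 7 with column totals and 3 with DESeq2.

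Some genes did not differ detectably between the oligonucleotides. H2-Ab1 lay at 1207 to 1376 CPM with CpG A and differed by 0.24 ± 0.17 (95% interval -0.14 to 0.61, adjusted p = 0.602). Tlr9 differed by 0.55 ± 0.45 (95% interval -0.41 to 1.52, adjusted p = 0.647). Cebpb differed by 0.72 ± 0.19 (95% interval 0.32 to 1.13) and missed the threshold (adjusted p = 0.0579), and Irf8 was higher with CpG B by 1.12 ± 0.28 (adjusted p = 0.0492), a call lost with DESeq2, with column totals and without any 4 or 6 h library. Among the 15 lower genes, the largest differences were of Hist2h4, a histone gene of a family with near-identical copies (57.2 to 124 CPM with CpG A, 0 to 4.00 with CpG B), and Rpph1, the RNA of RNase P (193 to 367 CPM with CpG A, 38.8 to 55.9 with CpG B and 64.0 untreated). Both make RNA that typically lacks a poly(A) tail, and the 3 CpG A libraries were also deeper, at 518061 to 748152 counts; their part in the comparison was not tested. In all, 60 to 429 genes were higher when 1 library was left out (60 without a 4 h library of either compound, 112 or 113 without a 6 h one, 428 or 429 without a 1 h one), 92 with column totals and 120 with DESeq2.

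**Figure D5:**
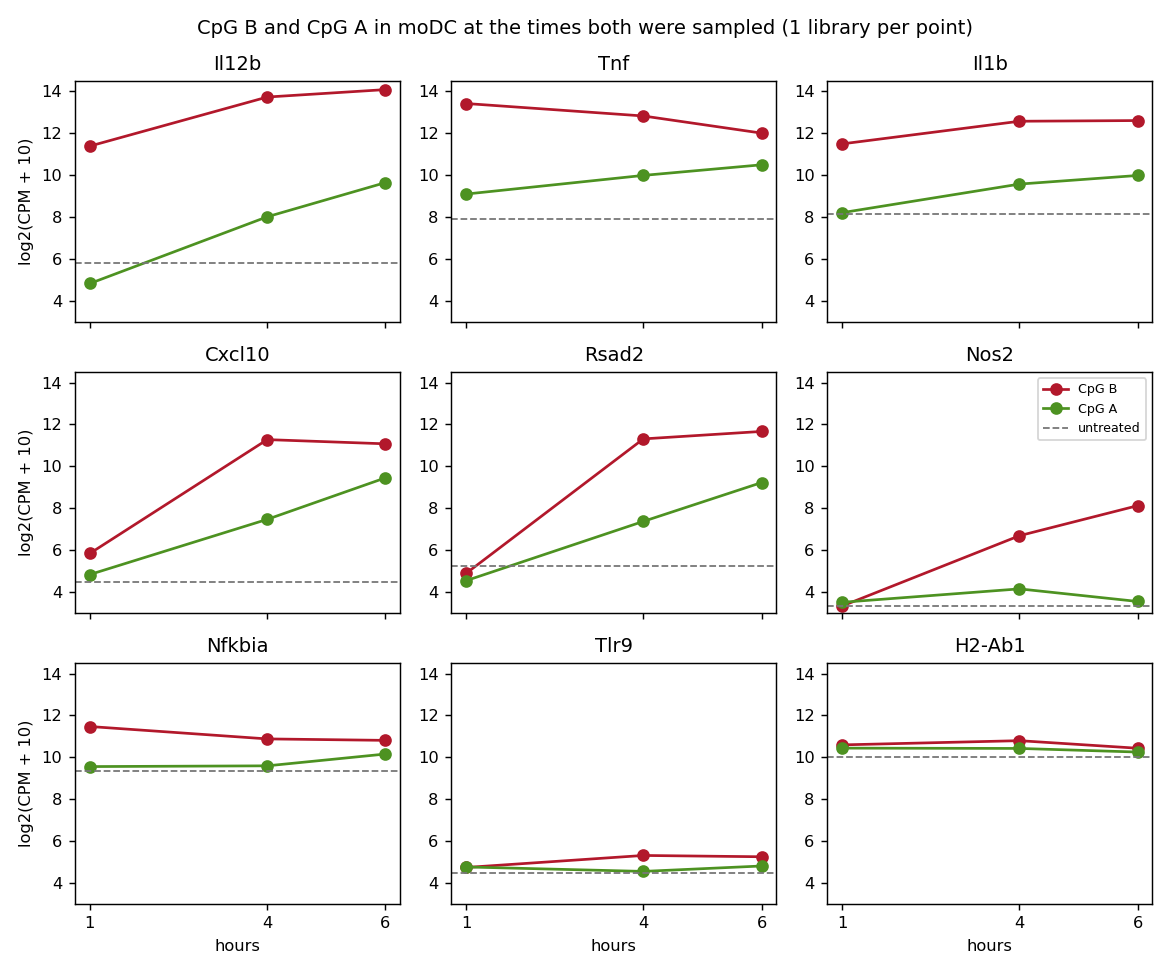
Level as log2(CPM + 10) of 9 genes at 1, 4 and 6 h of CpG B and of CpG A in moDC, with the untreated level as a dashed line and 1 library per point. Il12b, Tnf and Il1b are higher with CpG B at all 3 hours, Cxcl10 and Rsad2 separate at 4 h, and H2-Ab1 and Tlr9 run close together.

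The same late against early contrast was available in other time courses, which share no library with it. They come from the same fit and share its estimate of each gene's spread, so the overlaps are not between independent tests. Of the 241 genes higher late with CpG B, 175 (72.6%) were also called higher late with lipopolysaccharide (LPS, 100 ng/ml) in moDC, where they made up 53.0% of 330 calls, and 124 (51.5%) were called in pDC given CpG B, where they made up 28.6% of 434 calls. These calls were 4.1% of tested genes for LPS and 5.39% for pDC. Of the 57 lower genes 20 (35.1%, and 14.1% of 142 calls) were shared with LPS and 26 (45.6%, and 3.87% of 671 calls) with pDC, where the lower calls were 1.76% and 8.33% of tested genes. In either direction 5.86% of genes were called with LPS, 13.7% in pDC and 0.0372% with PAM3CSK (a Toll-like receptor 2 ligand, 100 ng/ml, in moDC), where 3 genes were higher and none lower by edgeR, and 798 had an unadjusted p below 0.05. The difference between the time courses of moDC and pDC was tested as an interaction in the same fit. The signed log2 change, late against early, was higher in moDC than in pDC for 67 genes (0.832%). It was lower for 17 (0.211%), 1.04% in all. A higher signed change need not be a larger response in moDC: Ccr2 changed by -0.24 in moDC and -2.81 in pDC. Irf8 was among the 67. It rose in moDC as above, and lay at 1540, 1150, 823 and 733 CPM at 1, 2, 4 and 6 h in pDC (difference 1.95 ± 0.38, log2, SE, adjusted p = 0.0122). By 6 h the cell types had close Irf8 levels, 719 CPM in moDC and 733 CPM in pDC. The higher and lower counts were 16 and 5 without 1 h of moDC, 7 and 3 without 2 h, 28 and 7 without 4 h, 30 and 5 without 6 h, 17 and 4 without 1 h of pDC, 92 and 33 without 2 h, and 4 and 3 without 6 h. The pDC libraries also listed more genes above 0, 16101 to 18111 against 10858 to 11970 in moDC with CpG B, and the part of this was not tested.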

How the data were processed

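The authors deposited a table of raw counts per gene for 32 stimulation libraries made from the 3′ ends of polyadenylated RNA. The submitters' processing notes name TopHat and the build mm9, and the counting tool is not given in the sources used here. The table has 21638 rows, and the 1 row without a gene name (0.47% to 0.889% of counts in the 5 moDC libraries) was left out. Gene names were matched to the RefSeq table for 19171 genes by symbol and 2270 by synonym, and 196 did not match.

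The 8056 genes tested reached 20 CPM in 4 or more of the 32 libraries. Per hour, log2((CPM + 10) / (untreated CPM + 10)) on TMM-scaled CPM was computed from single libraries, with exact (Clopper-Pearson) 95% counting intervals of count ratios. No molecular identifiers are described, so intervals and floors hold for counting error alone. Tests were edgeR 4.0.16 quasi-likelihood fits (R 4.3.3), two-sided, with 4 and 6 h taken as late and 1 and 2 h as early. In the fit of all 32 libraries p-values measure the spread between libraries of neighbouring hours, since no condition has a second library. For CpG B against CpG A the time block takes out differences between hours. Those p-values measure how the difference between the compounds varies over 1, 4 and 6 h. Scripts were tested on simulated data. Late against early, 8 of 67 true 2-fold changes were called there, 40 of 67 4-fold and 53 of 66 8-fold ones, with 8 false calls. A gene without a call may therefore still differ 2-fold. DESeq2 1.42.0, other scalings, pseudocounts and filters, and leaving out each library were the alternatives. Promoters were searched on both strands, without chromosome 18. Python 3.11.15, pandas 2.3.3, SciPy 1.17.1 and matplotlib 3.10.9 were used.

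Named genes were, per hour, the 5 highest and 5 lowest ratios among genes reaching 100 CPM, per list up to 4 members with the largest ratios and the one most against the list, per contrast the 8 largest changes in each direction, members of the TLR9 and NF-kB lists, and Cebpb and Irf8. The choice of other named genes followed a look at their values. The members and the 34 gene lists were chosen with earlier results of these data known. Some genes the rule names are not reported here.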

Additional observations from a re-analysis of the deposited data

Results flagged for a closer look

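The interaction test (edgeR, adjusted over 8056 genes) asked whether the late against early change of CpG B differed between moDC and pDC. Calls for 14 of the named or listed genes are given here as moDC minus pDC on the log2 scale. They are not all of its calls: the test called 22 genes that the naming rule picks. Casc1 and Lrmp are among these 22 and not among the 14. The moDC change was the higher one for Ccnd1 (2.96, adjusted p = 0.00972), Ccr2 (2.58, adjusted p = 0.0364), Cx3cr1 (4.46, adjusted p = 0.0188), Il10ra (1.62, adjusted p = 0.0364), Il1r2 (3.57, adjusted p = 0.0284), Irf8 (1.95, adjusted p = 0.0122), Padi2 (6.07, adjusted p = 0.031), Pik3ip1 (5.29, adjusted p = 0.0277), Tap1 (2.12, adjusted p = 0.0435) and Tlr3 (7.02, adjusted p = 0.0198). It was the lower one for Eno2 (-4.32, adjusted p = 0.0365), Insm1 (-3.88, adjusted p = 0.0255), Socs2 (-2.12, adjusted p = 0.0364) and Tnfrsf9 (-4.32, adjusted p = 0.0246). The 3 largest differences rest on few counts. From 1 to 6 h in moDC, Padi2 lay at 2.77, 0, 11.1 and 12.0 CPM and Pik3ip1 at 0, 3.12, 22.2 and 24.0 CPM. Tlr3 lay at 2.77, 0, 44.5 and 24.0 CPM there. In pDC Tlr3 lay at 50.3 CPM at 1 h and at 1.77 to 7.11 CPM later.

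Tap1, the peptide transporter gene, lay at 139, 191, 837 and 883 CPM at 1, 2, 4 and 6 h in moDC and at 412, 784, 882 and 554 CPM in pDC, so the cell types were far apart at 1 and 2 h and close at 4 h. Tnfrsf9, which encodes the receptor 4-1BB, lay at 227, 259, 182 and 132 CPM in moDC and at 3.87, 13.1, 18.97 and 184 CPM in pDC, and the adjusted p was 0.571 without the 6 h library of pDC. Ccr2, the chemokine receptor of monocytes, lay at 294, 169, 156 and 240 CPM in moDC and at 578, 322, 80.6 and 49.6 CPM in pDC. Socs2, a brake on cytokine receptors, lay at 255, 222, 296 and 372 CPM in moDC and at 25.1, 55.1, 230 and 244 CPM in pDC. Each of the 14 calls was lost without at least 1 of the 8 libraries. For Irf8 the adjusted p ranged from 0.00536 to 0.095 over these 8 fits.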

How the results depend on the processing

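Counts at single hours moved with the scaling, pseudocount and fold limit. With column totals 1030 genes were lower at 4 h, and 638 higher and 1176 lower at 6 h. With a pseudocount of 5 CPM 584 were higher and 440 lower at 1 h, and 596 lower at 2 h. With 20 CPM the counts were 227 and 112 at 1 h, 355 and 156 at 2 h, 304 lower at 4 h and 400 lower at 6 h. At a 4-fold limit they were 56 and 3, 82 and 10, 240 and 30, and 244 and 42 from 1 to 6 h.

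Late against early, 36 genes were lower with DESeq2, 99 with column totals and 97 without a filter, and leaving out 1 library gave 9 to 179 higher and 0 to 39 lower. Against untreated, 80 were lower with DESeq2 and 343 with column totals, and leaving out 1 library gave 149 to 176 higher and 21 to 43 lower. The moDC minus pDC difference gave 120 and 30 without a filter, and 4 to 92 and 3 to 33 with 1 library left out. CpG B against CpG A gave 120 higher and 2 lower with DESeq2, 92 higher with column totals, 57 lower without a filter, 16 and 2 without the time block, 432 and 158 from 4 and 6 h alone, and 60 to 429 and 2 to 161 with 1 library left out. The cause of these shifts was not tested. Of 8726 repeats of tests of named genes under these alternatives, 622 lost the call, 257 gained it and 0 reversed. DESeq2 repeats without an adjusted p are left out of these numbers. With DESeq2, 37 of 48 late against early calls of named genes were kept. It kept 11 of 22 calls of the moDC minus pDC difference and 43 of 73 of CpG B against CpG A. Only 48 of 223 named genes were called late against early in the main fit, so most repeats of that test are of genes not called. Of 3568 repeats of the hourly ratios of named genes, 3435 stayed inside the counting interval of the main ratio. The others moved outside it, among them 31 at 4 h and 28 at 6 h with column totals. A reversal was a change of sign of a ratio of at least 2-fold, and 0 were seen. Neither another pseudocount nor a scaling shift of the size seen here can cause one, so this 0 is no check. No paired analysis was possible because the labels carry no replicate numbers and each condition is 1 library; the time block matches CpG A and CpG B libraries by hour, not by a shared source. Depth limits low genes: a gene with no count could lie at up to 12.0 CPM at 6 h.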

Other observations

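Other sensors and survival genes also differed between late and early CpG B in moDC. Of 20 tested genes for other nucleic acid and microbial sensors, 6 rose late and none fell: Tlr3, Ddx58, Ifih1, Dhx58, Nod1 and Aim2. Of all tested genes 2.99% rose. Without 1, 2, 4 or 6 h the sensor calls numbered 0, 2, 3 and 1. Of 23 cell survival and death genes 2 rose, Casp4 (2.96, log2), an inflammatory caspase, and Mlkl (2.02), the effector of necroptosis, and without 1, 2, 4 or 6 h 0, 1, 2 and 1 were called. Hdc, the enzyme that makes histamine, lay at 19.7 CPM untreated, at 19.4 and 18.8 CPM at 1 and 2 h, and at 111 and 95.9 CPM at 4 and 6 h.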
